A study of Xenopus laevis with 16 samples.

Results

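The Hox cluster genes were represented by 28 probe sets with 21 gene symbols, out of 15491 non-control probe sets on a Xenopus laevis Affymetrix array. They are all probe sets whose platform annotation gives exactly 1 gene symbol made of hox, a cluster letter from a to d and a number. Of these, 9 read cluster A (6 genes), 6 read cluster B (5 genes), 6 read cluster C (5 genes) and 7 read cluster D (5 genes). The number in a Hox name is its paralog group, which counts from the end of the cluster used nearest the head to the end used nearest the tail.

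Hox genes encode homeodomain transcription factors, and their order along each cluster follows the order of their expression along the body axis. Genes of paralog groups 9 to 13 in clusters A and D are also switched on in nested domains of the vertebrate limb bud, where work in mice assigned the upper arm, the lower arm and the hand or foot to successive groups. In amphibian limbs that regenerate, genes of these groups are expressed again in the blastema, the mound of growing cells at the stump.

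RNA came from hindlimbs of Xenopus laevis tadpoles cut through the middle of the lower leg segment, on 1 side or both, and the sample was the stump tissue just proximal to the cut. The 4 groups were stage 53, called regeneration competent by the submitters, and stage 57, called non-competent, each at 1 day and at 5 days after amputation, with 4 arrays per group and 16 in all. Every group was amputated, uncut limbs were not analysed here, and the labels give no strain, genotype or sex and no statement that arrays stem from different tadpoles, so the spread behind the p-values may be technical. Array codes run in order of group, so neither stage nor day can be told apart from any effect of that order.

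Values are log2 of the deposited MAS5 signal, the array software's scaled brightness of a probe set. A call is an adjusted p below 0.05 in a limma fit to the 11618 probe sets whose mean log2 signal exceeded the 25th percentile. The number of arrays limits the precision. On 3 stage 57 arrays the beta-actin control, a sign of RNA quality, had a log2 ratio of 3' over 5' signal far above the rest. It was 4.70 in replicate 2 and 4.76 in replicate 3 at 1 day and 5.72 in replicate 2 at 5 days, against 0.01 to 2.38 on the other 13 arrays. Results are therefore given with and without these 3 arrays.

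The tissue labels were set against marker genes. The hindlimb gene pitx1.L had group means between 10.39 and 11.52, while both forelimb tbx5 probe sets fell below the filter, with a summed signal between 20.6 and 269.1 on the arrays. The other hindlimb gene, tbx4.L, was dim, with means of 6.58 and 6.97 at stage 53 and 6.60 and 6.36 at stage 57. Its stage 57 means lay below the 25th percentile of all probe sets (6.68 and 6.62). Muscle and limb mesenchyme markers differed between the stages. Summed signal of 11 skeletal muscle probe sets ran from 4839 to 9587 at stage 53 and from 21939 to 84548 at stage 57, and 10 of the 11 were called lower at stage 53 at both days. Summed signal of 7 limb mesenchyme probe sets at 5 days ran from 4412 to 7489 at stage 53 and from 1424 to 2519 at stage 57. Of the 5 kept by the filter, 4 were called higher at stage 53. Single markers of other cell types were called too, though their lists were mixed in sign. At 1 day matn1.L of cartilage (-2.94) and ncam1.S of nerve (-1.6) were called lower and krt8.1.S of epidermis (1.78) higher, and at 5 days sox10.L of Schwann cells (-1.88) and coro1a.S of myeloid cells (-1.65) lower. The 4 cartilage markers had medians of -1.24 and -1.79 and ran from -2.94 to 1.08 at 1 day. Tested epidermis markers ran from -0.56 to 1.78 at 1 day. Nerve and Schwann cell markers ran from -1.70 to 0.97 at 1 day and -1.88 to 0.98 at 5 days. Myeloid markers ran from -1.65 to 0.17 at 5 days. Without the 3 arrays 0 epidermis and 0 nerve markers were called at 1 day. At 5 days 1 nerve marker was then called higher, and 2 nerve and 2 cartilage markers lower. With all arrays 0 of 3 red cell markers were called, and without the 3 arrays 2 higher at 5 days. The part of these cell types in the Hox differences below was not tested, and in bulk tissue fewer cells of a type and less RNA per cell cannot be told apart.

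Most Hox probe sets were dim against the median of all probe sets. At or below it lay 24 of 28 at stage 53 at 1 day and 23 at 5 days. At stage 57 they numbered 25 and 26. Near background means here that a group's mean log2 signal lay at or below the 25th percentile of that group's means over all non-control probe sets. By that rule 10 of 28 were near background at stage 53 at 1 day, 8 at stage 53 at 5 days, 11 at stage 57 at 1 day and 14 at stage 57 at 5 days. Of the 28, 5 were near background in all 4 groups, 11 in 1 to 3 groups and 12 in none. Above the median of all probe sets were 6 in at least 1 group and 2, hoxa3.S and hoxa11.S (Xl.266.2.S1_a_at), in all groups. The array also carries 17 Affymetrix tag control probe sets, whose target is not given in the sources used here. Only hoxa3.S, hoxa11.S (Xl.266.2.S1_a_at), hoxc8.S and hoxd3.L exceeded the brightest tag control in all groups, and 19 exceeded it in none. In single groups 38.9% to 46.2% of all probe sets lay at or below it. No deposited detection call was used, so a low value is not separated from background.

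**Figure D1:**
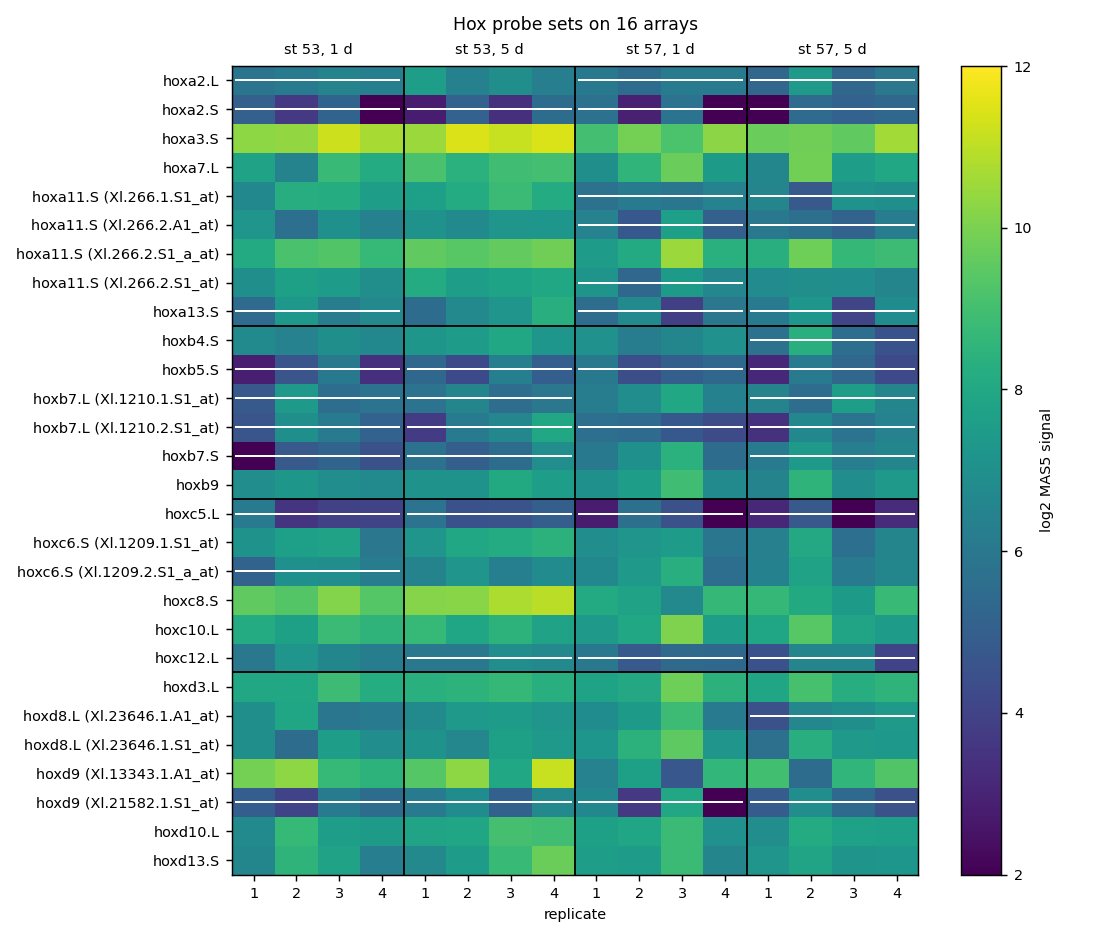
Log2 MAS5 signal (colour) of the 28 Hox probe sets (rows, by cluster and paralog number) on the 16 arrays (columns, by group and replicate), with black lines between clusters and groups and a white line through a group mean near background. White lines cross all 4 groups for hoxa2.S, hoxb5.S, hoxc5.L, 1 hoxb7.L and 1 hoxd9 probe set, and no white line crosses 12 of the rows.

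Dim genes are given first for paralog groups 2 to 8. In cluster A, hoxa2.S, a gene that patterns the jaw and hindbrain region, had group means between 3.84 and 4.36 and was near background throughout, and hoxa2.L was near background in 3 groups (means 5.94 to 6.80). A further probe set annotated to both hoxa2 copies is no member and was left out of all counts. It was not near background, with means of 8.58 and 8.98 at stage 53 and 7.64 and 8.02 at stage 57. The dim readings of the 2 members therefore do not show that hoxa2 is absent. In cluster B, hoxb5.S (means 4.22 to 5.24) was near background in all groups and hoxb7.S (means 4.0 to 6.75) in 3. The probe sets of hoxb7.L were near background in all groups (Xl.1210.2.S1_at, means 5.05 to 6.13) and in 3 (Xl.1210.1.S1_at, means 5.90 to 6.88). In cluster C, hoxc5.L (means 3.14 to 4.97) was near background in all groups. Near background in 1 group were hoxb4.S and hoxd8.L (Xl.23646.1.A1_at) at stage 57 at 5 days, with means of 6.03 and 6.38, and hoxc6.S (Xl.1209.2.S1_a_at) at stage 53 at 1 day, with a mean of 6.32.

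Posterior genes were among the dim ones too. The gene hoxa13.S, whose mouse counterpart is needed to form the digits, had means between 5.56 and 6.93 and was near background in all groups but stage 53 at 5 days. Posterior hoxc12.L (means 5.40 to 6.5) was near background in all groups but stage 53 at 1 day, where its mean of 6.5 lay just above the limit of 6.45. Of the 28 probe sets 11 fell below the filter and 17, for 13 gene symbols, were tested. The genes without a tested probe set were hoxa2.L, hoxa2.S, hoxa13.S, hoxb5.S, hoxb7.L, hoxb7.S, hoxc5.L and hoxc12.L. No conclusion is drawn here on whether those 8 genes changed, and values given for them below only describe the readings.

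At 5 days after amputation, 3 of the 17 tested Hox probe sets were called higher at stage 53 and 0 lower. Over all tested probe sets 3.48% were called higher and 3.89% lower. The 3 were hoxc8.S, hoxa3.S and 1 probe set of hoxa11.S. That hoxa11.S probe set was near background in both stage 57 groups and passed the filter only through stage 53, where it was higher. It stays in the counts, but no conclusion is drawn from its call. The median Hox difference, stage 53 minus stage 57, was 0.84 on the log2 scale with 16 of 17 above 0, against 0.10 and 56.5% above 0 over all probe sets. Those above 0 numbered 12 after quantile normalization and 13 after centring on array medians, with medians of 0.76 and 0.74. Arrays of the stages did not overlap, stage 53 being higher, for 3 Hox probe sets (hoxc8.S and 2 of hoxa11.S) and for 11.2% of all, and the opposite held for 0 Hox probe sets and 7.36% of all. Over all probe sets 404 were called higher and 452 lower, a split that became 297 and 575 after median centring.

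The Hox gene with the largest called difference was hoxc8.S (Xl.16273.1.A1_at), whose mouse counterpart sets the identity of thoracic segments. At 5 days it read 10.17, 10.22, 10.78 and 10.98 on the stage 53 arrays and 8.65, 8.07, 7.45 and 8.77 on the stage 57 arrays. All stage 53 arrays lay above all stage 57 arrays. The difference was 2.31 (SE 0.39), a 4.94-fold higher signal, at adjusted p = 0.00157. It was 2.25 without the 3 arrays (adjusted p = 0.000466), and the call was made under all 26 alternatives run.

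The gene hoxa11.S is tied, from work in mice, to the lower limb segment, through which these limbs were cut. Its probe set Xl.266.1.S1_at read 7.66, 8.13, 8.81 and 8.15 at stage 53 at 5 days and 6.56, 4.81, 7.09 and 6.98 at stage 57. The groups did not overlap, and replicate 2 of stage 57, one of the 3 arrays of high actin ratio, was the lowest. The difference was 1.83 (SE 0.49), 3.55-fold, at adjusted p = 0.0296. Its stage 57 means, 6.07 at 1 day and 6.36 at 5 days, were near background. The fold therefore rests on a dim level, and the probe set passed the filter only through its stage 53 groups, where it was higher. Its call is therefore given as a description only. The difference was 1.31 without the 3 arrays (adjusted p = 0.0353). The call was made under 19 of 25 alternatives and was lost on leaving out stage 53 at 5 days replicate 2, 3 or 4 (adjusted p = 0.066, 0.101 and 0.0741) or stage 57 at 5 days replicate 2 alone (0.0645). It was lost too after quantile normalization (0.0506) and in a fit to the 5-day arrays alone (0.0527).

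Another pair of hoxa11.S probe sets was tested. Probe set Xl.266.2.S1_a_at read 9.54, 9.40, 9.60 and 9.84 at stage 53 at 5 days and 8.25, 9.79, 8.67 and 8.86 at stage 57, and Xl.266.2.S1_at read 8.14, 7.62, 7.80 and 8.01 against 6.83, 6.95, 6.90 and 6.53. For the first, stage 57 replicate 2 lay among the stage 53 arrays, while the second did not overlap. Neither passed, with differences of 0.70 (SE 0.50, adjusted p = 0.433) and 1.09 (SE 0.39, adjusted p = 0.105). Both did without the 3 arrays, at 1.00 (adjusted p = 0.0342) and 1.13 (adjusted p = 0.0183). The fourth, Xl.266.2.A1_at, fell below the filter, was near background in both stage 57 groups, and had means of 7.09 at stage 53 and 5.76 at stage 57 at 5 days. Pearson correlation between these 4 probe sets over the 16 arrays ran from 0.26 to 0.72, a description only, since they share arrays and groups. RefSeq places the gene named hoxa11.S between hoxa9.L and hoxa13.L, so the letter of its subgenome, L or S, is uncertain.

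The gene hoxa3.S acts in mice in the throat glands and neck. It read 10.48, 11.46, 11.14 and 11.42 at stage 53 at 5 days and 9.71, 9.84, 9.57 and 10.61 at stage 57. One stage 57 array, replicate 4, lay above the lowest stage 53 array, so the groups overlapped. The difference was 1.19 (SE 0.34), 2.28-fold, at adjusted p = 0.0414, and 1.16 without the 3 arrays (adjusted p = 0.0372). It was called under 17 of 26 alternatives. It was lost after median centring (adjusted p = 0.0626), on leaving out stage 53 at 1 day replicate 1 or 4 (0.0503 and 0.0566) or stage 53 at 5 days replicate 2, 3 or 4 (0.11, 0.0968 and 0.127). It was lost too without stage 57 at 5 days replicate 1, 2 or 3 (0.0807, 0.0738 and 0.123).

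**Figure D2:**
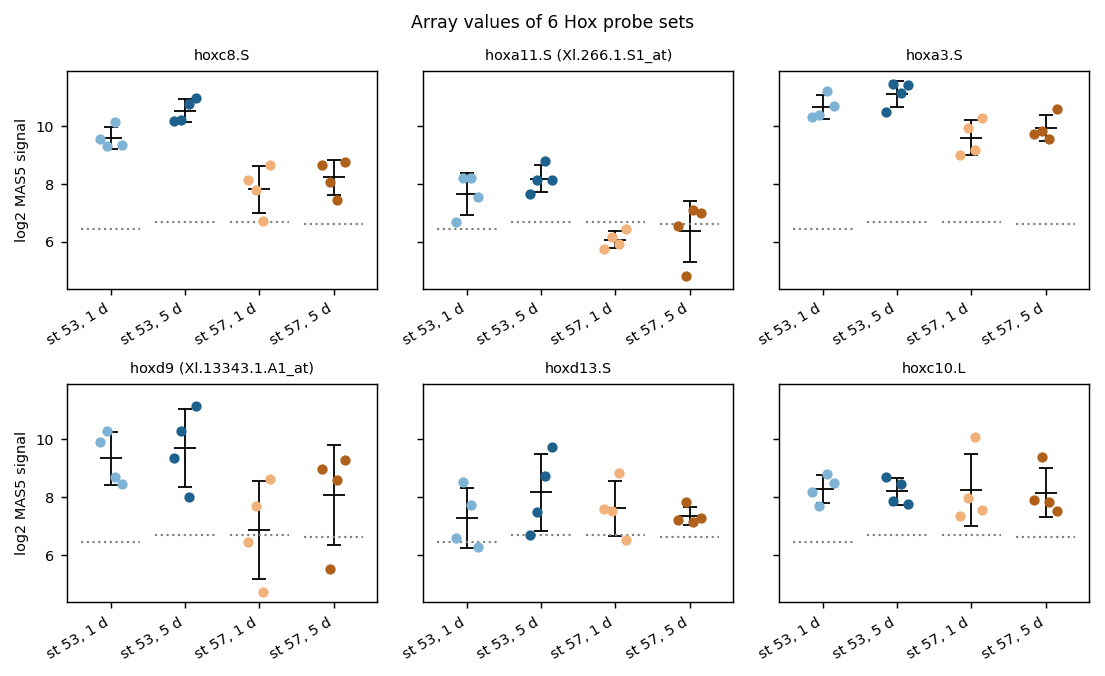
Log2 MAS5 signal of 6 Hox probe sets on each array, by group, with the group mean and SD (n = 4, black bars) and the near-background limit of the group (dotted). For hoxc8.S the stage 53 arrays lie above every stage 57 array at both days, for hoxa11.S (Xl.266.1.S1_at) the stage 57 arrays lie around the limit, and for hoxc10.L the groups overlap.

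The tested genes of paralog groups 9 to 13 in clusters C and D did not pass at 5 days. The gene hoxd13.S, which acts in digit formation in mice, read 6.70, 7.49, 8.73 and 9.75 at stage 53 and 7.2, 7.82, 7.16 and 7.27 at stage 57. The stage 53 arrays spread on both sides of the stage 57 arrays. The difference was 0.81 (SE 0.62, adjusted p = 0.479), with a 95% interval from -0.51 to 2.12. Without the 3 arrays it was 0.96 (adjusted p = 0.327).

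In the same cluster hoxd10.L, known in mice for motor neurons of the hindlimb, read 7.85, 7.91, 9.07 and 8.95 at stage 53 and 6.89, 8.14, 7.72 and 7.66 at stage 57. The groups overlapped and the difference was 0.84 (SE 0.46, adjusted p = 0.292), and 1.02 without the 3 arrays (adjusted p = 0.130). The tested hoxd9 probe set (Xl.13343.1.A1_at) read 9.35, 10.31, 8.01 and 11.15 against 8.96, 5.54, 8.58 and 9.27. It had the widest spread of these, with stage 57 replicate 2 lowest and the groups overlapping. The difference was 1.61 (SE 0.89, adjusted p = 0.30), and 0.76 without the 3 arrays. The other hoxd9 probe set, Xl.21582.1.S1_at, was near background in all groups (means 4.96 to 6.20), and the pair had a Pearson correlation of -0.32 over the 16 arrays.

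The gene hoxc10.L, expressed in hindlimb buds of other vertebrates, read 8.72, 7.87, 8.45 and 7.76 at stage 53 and 7.89, 9.39, 7.83 and 7.53 at stage 57 at 5 days. The groups overlapped. The difference was 0.04 (SE 0.53), with a 95% interval from -1.07 to 1.15, and 0.45 without the 3 arrays.

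Of the other tested members at 5 days, hoxb4.S (1.48, adjusted p = 0.131) and hoxc6.S (Xl.1209.1.S1_at, 1.28, adjusted p = 0.151) did not pass with all arrays. For both, stage 57 replicate 2, an array of high actin ratio, read highest of its group, at 8.27 against 4.50 to 5.77 for hoxb4.S and at 8.03 against 5.67 to 6.53 for hoxc6.S. Their differences without the 3 arrays were 2.22 (adjusted p = 0.00119) and 1.75. Both of these rest on a stage 57 group near background, since its means were then 5.29 for hoxb4.S and 6.19 for hoxc6.S against a limit of 6.52. Their sizes are therefore uncertain. For hoxc6.S the stage 57 mean at 1 day, 6.41 against a limit of 6.44, was then near background too. This hoxc6.S probe set thus passed the filter only through its stage 53 groups, where it was higher. No call is drawn for it from that fit, though it stays in the count below. The mouse counterpart of hoxb4 acts in neck vertebrae and blood stem cells, and that of hoxc6 in thoracic segments. The second hoxc6.S probe set (Xl.1209.2.S1_a_at) differed by -0.01 and fell below the filter without the 3 arrays. The thoracic gene hoxa7.L differed by 0.85 (adjusted p = 0.472) with all arrays and by 1.47 without the 3 (adjusted p = 0.0379), with its stage 57 replicate 2 at 9.86 against 6.59 to 8.01. The remaining 4 tested probe sets, for hoxb9, hoxd3.L and hoxd8.L, differed by 0.01 to 0.83 and passed neither with nor without the 3 arrays.

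Leaving out the 3 arrays thus moved the count at 5 days from 3 to 8 of 16 tested Hox probe sets higher. The 8 were 3 of hoxa11.S and 1 each of hoxa3.S, hoxa7.L, hoxb4.S, hoxc6.S and hoxc8.S, with hoxb4.S and hoxc6.S near background at stage 57. The count includes hoxc6.S although it passed the filter in that fit only through its stage 53 groups. The median rose to 1.01, with 16 of 16 above 0. Over all tested probe sets the share called higher also went up, to 8.27%. Replicate 2 of stage 57 at 5 days was the highest of its group for 12 of the 17 tested Hox probe sets, 70.6%, against 40.5% of all tested probe sets. At 1 day replicate 3 of stage 57 was highest for 12 of 17, against 36.2%, and replicate 2, with about the same actin ratio, for 0 of 17, against 16.4%.

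**Figure D3:**
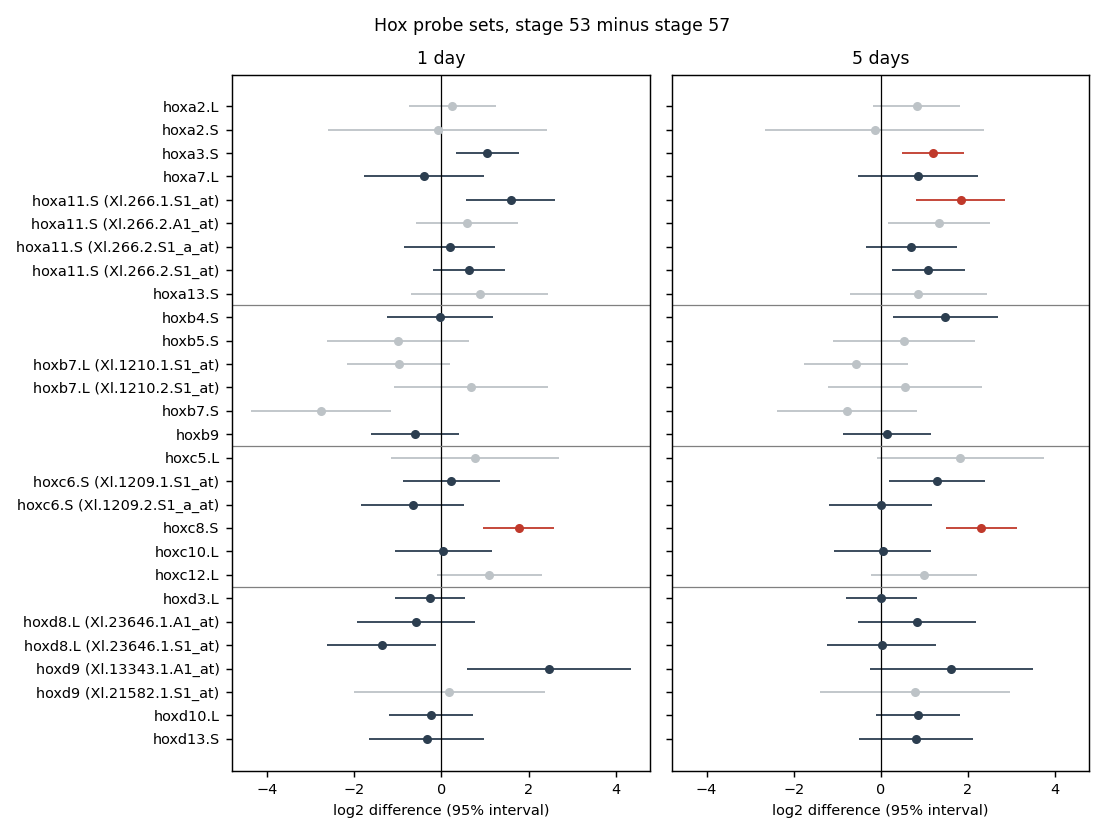
Log2 difference, stage 53 minus stage 57, with 95% intervals for the 28 Hox probe sets at 1 day (left) and 5 days (right), with called probe sets in red, tested but not called in dark, and below the filter in grey. At 5 days the 3 called points are hoxa3.S, 1 of hoxa11.S and hoxc8.S, and at 1 day hoxc8.S. The called hoxa11.S probe set passed the filter only through its stage 53 groups.

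By cluster, the medians at 5 days were 1.09 for the 5 tested probe sets of cluster A, 0.81 for the 2 of cluster B, 0.66 for the 4 of cluster C and 0.82 for the 6 of cluster D. By paralog number they were 1.19 for the 3 in groups 2 to 4, 0.84 for the 6 in groups 5 to 8 and 0.82 for the 8 in groups 9 to 13. Each subset ranged over more than 1 log2 unit. Calls fell in cluster A (2 of 5) and cluster C (1 of 4), and 0 of 6 cluster D probe sets passed, with or without the 3 arrays. Of the 2 in cluster A, the hoxa11.S probe set passed the filter only through its stage 53 groups. Whether clusters or paralog groups differed was not tested.

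At 1 day, 1 of 17 tested Hox probe sets was called higher at stage 53 and 0 lower, against 0.990% called higher and 1.56% lower of all probe sets. That was hoxc8.S, which read 9.54, 9.33, 10.15 and 9.35 at stage 53 and 8.13, 7.78, 6.72 and 8.65 at stage 57. The groups did not overlap, and stage 57 replicate 3, an array of high actin ratio, was lowest. The difference was 1.77 (SE 0.39), 3.42-fold, at adjusted p = 0.021.

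This 1-day call depended on the arrays used. Without the 3 arrays the difference was 1.2 and did not pass (adjusted p = 0.146), and 0 Hox probe sets were called then, while 0.680% of all were called higher. It was also lost in a fit to the 1-day arrays alone (0.0828), without stage 53 at 1 day replicate 1 or 3 (0.0524 and 0.0841) and without stage 57 at 1 day replicate 2 or 3 (0.055 and 0.0514). The call was made under 20 of 26 alternatives.

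The members called at 5 days had the same sign at 1 day. The gene hoxa11.S (Xl.266.1.S1_at) read 6.68, 8.21, 8.21 and 7.55 at stage 53 and 5.77, 6.17, 5.92 and 6.44 at stage 57 at 1 day. The groups did not overlap, and the difference of 1.59 (SE 0.49) did not pass (adjusted p = 0.101), though it did without stage 57 at 5 days replicate 2 (adjusted p = 0.0261). The gene hoxa3.S read 10.32, 10.38, 11.23 and 10.68 against 9.0, 9.92, 9.18 and 10.28. Its groups also did not overlap, and the difference of 1.06 (SE 0.34) did not pass (adjusted p = 0.120), though it did without stage 57 at 1 day replicate 4 (adjusted p = 0.0444).

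Arrays of the stages did not overlap at 1 day, with stage 53 higher, for these 3 of the 17 and for 4.87% of all probe sets. Stage 57 was higher without overlap for 0 of the 17 and for 4.32% of all. The median Hox difference was -0.03 with 8 of 17 above 0, against 0.04 and 52.5% over all probe sets. It was 0.47 without the 3 arrays, with 14 of 16 above 0. The 1-day median had no stable sign. It was also above 0 without stage 53 at 1 day replicate 1 or 2 (both 0.06), without stage 57 at 1 day replicate 3 (0.17) and with no filter (0.12).

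Among posterior genes at 1 day, hoxd9 (Xl.13343.1.A1_at) had the widest difference, with 9.93, 10.29, 8.70 and 8.45 at stage 53 and 6.44, 7.69, 4.71 and 8.63 at stage 57. Only stage 57 replicate 4 reached into the stage 53 range, and the lowest reading was replicate 3. The difference of 2.47 (SE 0.89) did not pass (adjusted p = 0.167) and was 1.81 without the 3 arrays. The gene hoxd13.S read 6.58, 8.52, 7.75 and 6.29 against 7.59, 7.52, 8.83 and 6.53, and hoxd10.L read 6.73, 8.71, 7.61 and 7.44 against 7.68, 7.89, 8.81 and 7.06. Both overlapped, with differences of -0.33 (SE 0.62) and -0.24 (SE 0.46) that turned to 0.22 and 0.25 without the 3 arrays. The gene hoxc10.L read 8.17, 7.69, 8.81 and 8.49 against 7.36, 7.98, 10.07 and 7.55. It differed by 0.05 (SE 0.53), and its stage 57 replicate 3 read above every stage 53 array.

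The other hoxa11.S probe sets at 1 day were read at 8.1, 9.14, 9.29 and 8.69 against 7.51, 8.12, 10.48 and 8.35 (Xl.266.2.S1_a_at) and at 6.99, 7.69, 7.48 and 6.95 against 7.17, 5.35, 7.46 and 6.62 (Xl.266.2.S1_at). Both pairs of groups overlapped. Their differences were 0.19 (SE 0.50) and 0.63 (SE 0.39), and neither passed. The stage 57 mean of Xl.266.2.S1_at at 1 day, 6.65, was near background. Both probe sets of the trunk gene hoxd8.L had a difference below 0 at 1 day, and neither passed. Xl.23646.1.S1_at differed by -1.37 (SE 0.59, adjusted p = 0.238) and by -0.50 without the 3 arrays, and its stage 57 replicate 3 read 9.52, the highest of the 16 arrays. Xl.23646.1.A1_at differed by -0.58 (SE 0.64) and by 0.25 without the 3 arrays.

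The dim hoxb7.S lay lower at stage 53 at 1 day, with a mean of 4.0 against 6.75. It was outside the test, and in a fit with no filter its difference was -2.76 (adjusted p = 0.0781). Its arrays did not overlap, as held for 4.32% of all tested probe sets with stage 57 higher, but it was near background in 3 of the 4 groups. The other group, stage 57 at 1 day, held replicates 2 and 3 of high actin ratio, at 7.03 and 8.40. Without them its mean was 5.79 against a limit of 6.44, near background too. At stage 53 at 1 day replicate 1 read 1.49 and the others 4.48 to 5.21.

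**Figure D4:**
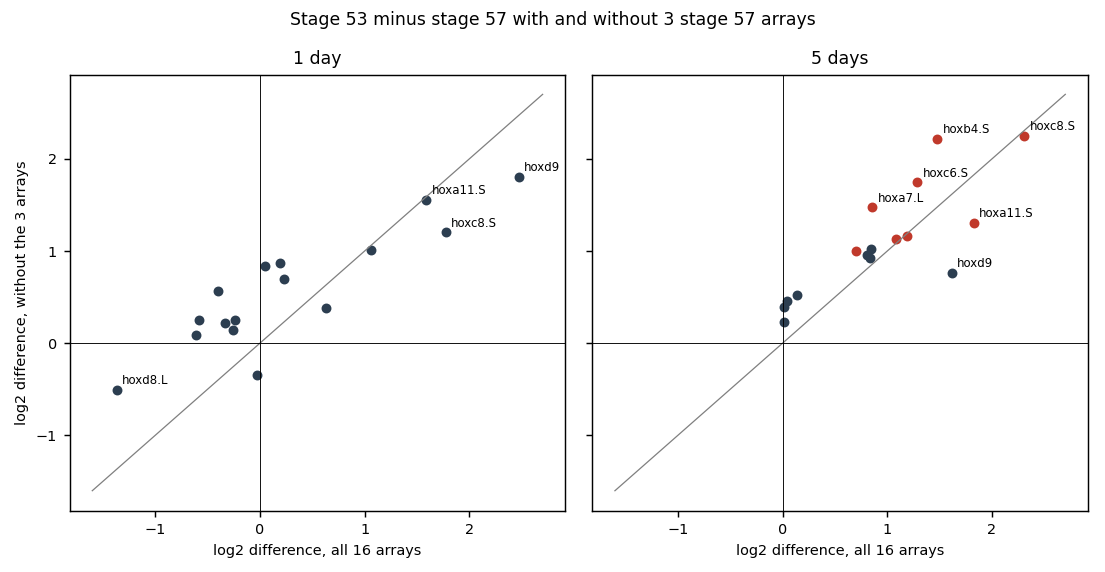
Log2 difference, stage 53 minus stage 57, of the 16 Hox probe sets tested in both fits, with all 16 arrays (horizontal axis) and without the 3 stage 57 arrays of high actin ratio (vertical axis), at 1 day (left) and 5 days (right), with probe sets called without the 3 arrays in red and the line of equal values in grey. At 1 day points lie on both sides of the line with 0 called, and at 5 days all 16 lie above 0 on both axes with 8 called. Of these, hoxc6.S passed the filter without the 3 arrays only through its stage 53 groups.

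Between 1 and 5 days, 0 of 17 tested Hox probe sets were called at either stage. At stage 53, 0.121% of all probe sets were called in either direction, and the median Hox difference, 5 days minus 1 day, was 0.53 with 16 of 17 above 0, against 0.07 and 57.4% over all. Only hoxc8.S had an unadjusted p below 0.05 among the tested members, with a difference of 0.95 (SE 0.39, adjusted p = 0.424). Its arrays did not overlap between the days, as was also true of hoxb4.S (0.80) and hoxa11.S (Xl.266.2.S1_a_at, 0.79). These 3 of 17 stand beside 6.17% of all probe sets without overlap and higher at 5 days, and 0 Hox probe sets beside 4.93% lower. The exception to the sign was hoxc10.L at -0.09. The 3 stage 57 arrays enter this contrast only through the shared spread, its trend on mean signal and the filter. Without them 153 of all probe sets were called higher, 218 lower, and 0 of 16 Hox probe sets either way.

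At stage 57, 0.00% of all probe sets were called between the days by limma, while 237 of them and 0 Hox members had an unadjusted p below 0.05. The median Hox difference was -0.17 with 6 of 17 above 0, against 0.02 and 52.0% over all probe sets. Without the 3 arrays the Hox median was 0.07 with 10 of 16 above 0. With all arrays the Hox differences ran from -0.94 for hoxd8.L (Xl.23646.1.A1_at) to 1.22 for hoxd9 (Xl.13343.1.A1_at). For hoxc8.S it was 0.42 (SE 0.39), and for hoxa3.S 0.34 (SE 0.34).

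The difference between the stages in their change over days, the interaction, was called for 0.0258% of all probe sets and for 0 of the 17. By limma 461 of all probe sets and 0 of the 17 had an unadjusted p below 0.05. The Hox median was 0.65 with 15 of 17 above 0, against 0.04 and 53.3% over all. The widest was hoxb4.S at 1.5 (SE 0.81, adjusted p = 0.997). For hoxc8.S it was 0.53 with a 95% interval from -0.63 to 1.69. A larger stage difference at 5 days than at 1 day was therefore not shown for any tested Hox gene. Centring on array medians moved the median of all probe sets from 0.07 to -0.03 between days at stage 53 and from 0.04 to -0.06 in the interaction, where the Hox medians became 0.42 and 0.55. These contrasts share arrays with the stage comparisons and are not independent of them.

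**Figure D5:**
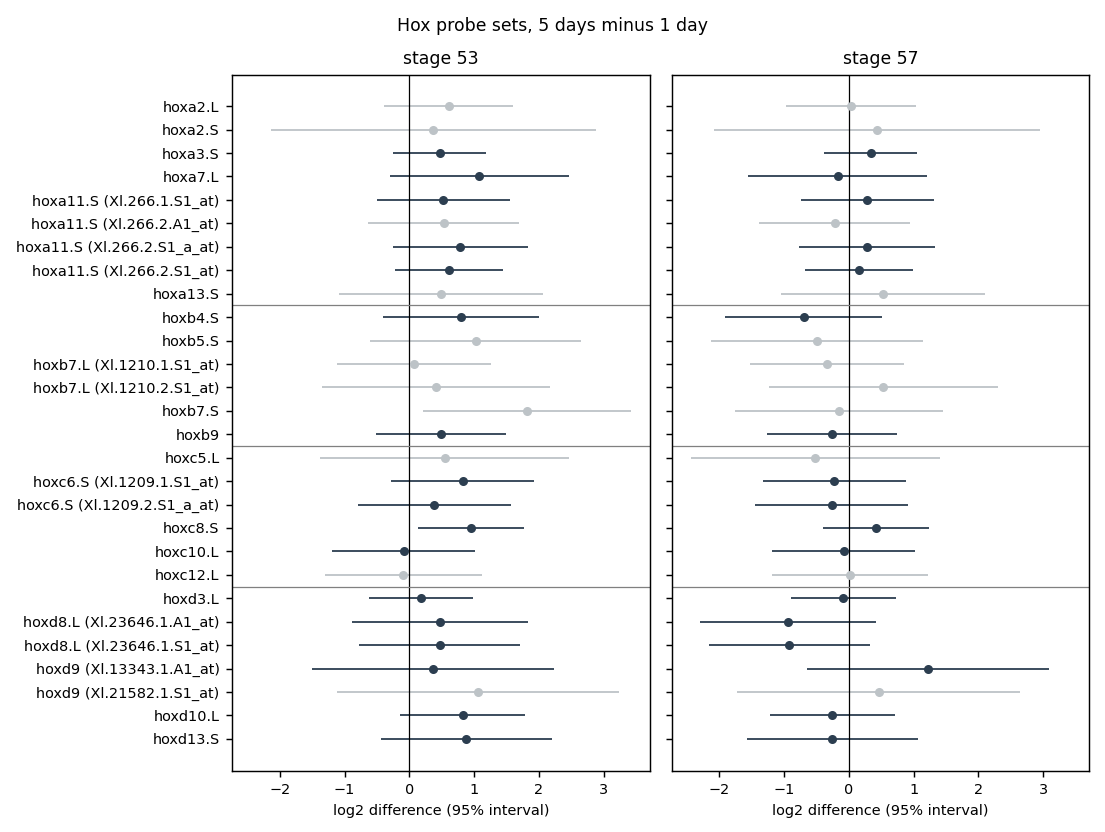
Log2 difference, 5 days minus 1 day, with 95% intervals for the 28 Hox probe sets at stage 53 (left) and stage 57 (right), with tested probe sets in dark and those below the filter in grey. At stage 53, 16 of the 17 tested points lie above 0, and at stage 57 they lie on both sides, with 0 called at either stage.

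Genes that work with Hox proteins were read from lists named by function. Each gene symbol stood as its brightest tested probe set, so its other probe sets are not seen here. The lists below stand beside 0.990% of all tested probe sets called higher at stage 53 at 1 day and 3.48% at 5 days. Medians over all were 0.04 and 0.10. Without the 3 arrays those shares were 0.680% and 8.27%. Of the Hox cofactors, the Meis, Pbx and Pknox proteins that bind DNA with Hox proteins, 5 were tested and 0 were called in any of the 5 contrasts with all arrays. Their stage medians were 0.06 at 1 day and 0.72 at 5 days. The cofactor pbx2.L differed by 1.2 at 1 day (SE 0.31, adjusted p = 0.0513) and by 0.71 without the 3 arrays (adjusted p = 0.190). At 5 days pbx2.L differed by 0.80 (SE 0.31, adjusted p = 0.136), and by 0.58 without the 3 arrays (adjusted p = 0.0788). Cofactor meis2.L differed by 0.97 at 5 days (SE 0.40, adjusted p = 0.155), which passed without the 3 arrays (adjusted p = 0.0183).

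Polycomb and trithorax proteins keep Hox genes off or on through chromatin. Of 13 tested, 0 were called at 1 day and 2 higher at stage 53 at 5 days, with medians of 0.29 and 0.35. The 2 were pcgf2.L, part of a Polycomb complex (1.64, SE 0.42, adjusted p = 0.0246), and rnf2.L, its ubiquitin ligase (1.18, SE 0.33, adjusted p = 0.0397). Without the 3 arrays 4 were called. The 5 genes of the Cdx, Gbx and ParaHox list on the array, relatives and regulators of Hox genes, all fell below the filter.

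Of 19 tested limb genes that act beside Hox genes, 3 were called higher at stage 53 at 1 day, with a median of 1.09. They were hand2.S, a posterior limb regulator (3.41, SE 0.44, adjusted p = 0.000374), msx1.L, a blastema homeobox gene (1.62, SE 0.36, adjusted p = 0.0247), and tbx3.S (1.92, SE 0.45, adjusted p = 0.0282). At 5 days 12 of the 19 were called higher and 0 lower, with a median of 1.58. Among these hand2.S differed by 3.43 (SE 0.44), tbx3.S by 3.08 (SE 0.45) and grem1.L, a BMP antagonist of the limb bud, by 2.90 (SE 0.38). Without the 3 arrays 15 of the 19 were called at 5 days. At 1 day 4 were called then, hand2.S, bmp2.L, bmp4.S and msx2.L, while msx1.L and tbx3.S no longer passed (adjusted p = 0.0930 and 0.0731). In the day contrasts and the interaction 0 of these list genes were called with all arrays, and 3 limb genes were called between days at stage 53 without the 3. In the fit with all arrays the filter removed shh.L, the posterior limb signal, named here after its values were seen. It had group means of 8.29 and 9.03 at stage 53 and 3.78 and 4.65 at stage 57. Without the 3 arrays shh.L passed the filter, though it is not among the 19 counted above. It passed only through the stage 53 groups, where it was high, so no call is drawn from that fit. Its differences, stage 53 minus stage 57, were then 5.13 at 1 day and 4.02 at 5 days. Both sizes are uncertain, since the stage 57 means were near background.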

How the data were processed

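The deposited values are signal intensities on a linear scale, made with MAS5 per the submitters' processing notes. Its version and its scaling target are not given in the sources used here. Total RNA was amplified with the Affymetrix 2-cycle kit, per the labels' protocols. From the table of 15611 probe sets 120 Affymetrix controls were removed, values were put on the log2 scale with no offset, and probe sets with a mean above the 25th percentile were kept. Group means were fitted to all 16 arrays with limma 3.58.1, run in R 4.3.3, using moderated tests with a trend on mean signal. Benjamini-Hochberg adjustment was made within each contrast, and all adjusted p-values are from limma. Tested on simulated data for the 5-day stage comparison over 11618 probe sets, the fit recovered 61 of 100 probe sets changed by 2 log2 units and 90 of 100 changed by 3, with 4 false calls. The simulated noise was normal and independent between probe sets, with no effect shared by an array. Changed probe sets were drawn only from above the filter limit. Recovery for dim Hox probe sets, or with arrays like the 3 of high actin ratio, was not tested.

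Symbols came from the platform annotation, and 25 of the 28 probe sets matched RefSeq genes by Entrez identifier (hoxb9 and both of hoxd9 did not). The letters L and S mark the long and short subgenome. Which copy or paralog a probe set reads was not tested. In 6 identifiers A1 stands in place of S1, and its meaning is not given in the sources used here. Apart from the near-background, median and tag control limits, probe sets are not compared in level with each other. Those limits set a probe set's signal against other probe sets. How far differences in sensitivity between probe sets decide which are dim was not tested.

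By rule, members called in any contrast and tested members of paralog groups 9 to 13 of clusters A, C and D were given array by array, others by means or differences. Up to 4 genes per companion list and stage contrast were named by smallest p. Outside that rule, bmp2.L, bmp4.S and msx2.L were named from the fit without the 3 arrays, and shh.L after its values were seen. The members, lists and tests were chosen with earlier results of these data known. Replicate numbers only name arrays in accession order. Alternatives were quantile normalization, median centring, 2 offsets, other filters, fits to the compared arrays only, each array left out, and the 3 arrays of high actin ratio left out. Fits with no trend on mean signal and with the robust option of the moderated tests were run as well. Tag control limits, and the near-background counts without single arrays or the 3 arrays, were added after seeing the data.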

Additional observations from a re-analysis of the deposited data

Results flagged for a closer look

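Each of the 28 Hox probe sets was examined in the 4 groups, 112 sets of 4 arrays, for a highest or lowest array far from the others by Dixon's test. There were 3 such values among the 112, a smaller share than the about 1 in 20 that chance gives. In hoxa2.L (Xl.12098.1.S1_at), replicate 2 of stage 57 at 1 day read 5.54 on the log2 scale and the others 6.04 to 6.10. In hoxa2.S (Xl.751.1.S1_at), replicate 1 of stage 57 at 5 days read 1.43 and the others 5.13 to 5.48. Both probe sets fell below the filter. In hoxd13.S, replicate 2 of stage 57 at 5 days read 7.82 and the others 7.16 to 7.27. The first and the last of these arrays are among the 3 of high actin ratio.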

How the results depend on the processing

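No paired analysis was possible because the labels give the arrays no shared replicate numbers. Hox probe sets called higher at stage 53 at 1 day numbered 1, 0 in a fit to the compared arrays only, 0 without the 3 arrays of high actin ratio, and 0 to 2 with single arrays left out. At 5 days they numbered 3, 8 without the 3 arrays, and 1 to 4 with single arrays left out. Among the 3 is a hoxa11.S probe set, and among the 8 a hoxc6.S probe set, that passed the filter only through stage 53 groups. Hox probe sets called higher at 5 days numbered 2 after quantile normalization, 2 after median centring and 2 of 3 tested with the filter at the 50th percentile. Counts of Hox probe sets called lower, and of those called between days or in the interaction, were 0 under every alternative run. Of single-probe-set differences called with all arrays, all 26 values at 1 day and all 77 at 5 days kept their sign. Among those not called, 25 of 401 values at 1 day and 27 of 350 at 5 days changed sign. Companion list genes called higher numbered 3 at 1 day, 5 with either offset (31.3 or 101.8), 1 in a fit to the compared arrays only and 1 to 7 with single arrays left out. At 5 days they numbered 14, 7 with the filter at the 50th percentile and 9 to 17 with single arrays left out. The near-background counts depend on the limit. Taking stage 53 (1 day, then 5 days) before stage 57 (likewise), they were 10, 8, 11 and 14, and 4, 2, 4 and 3 at the 10th percentile. The counts were 24, 23, 25 and 26 at the 50th percentile, 22, 21, 20 and 22 at the highest tag control and 4, 2, 5 and 3 at the median tag control. Of all probe sets 38.9% to 46.2% lay at or below the highest tag control and 7.75% to 10.8% at or below the median one. Without the 3 arrays the stage 57 counts were 14 and 14. With single arrays of the group left out the counts ran over 9 to 12, 8 to 9, 12 to 13 and 12 to 14. The cause of these shifts was not tested. Signal near background limits what can be said of the 11 probe sets below the filter.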
